A study of Mus musculus with 8 samples.

Results

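In livers of calorie-restricted mice, 520 of the 8068 FOXO1 regions overlapped no glucocorticoid receptor (GR) peak in any of 6 GR libraries, 6.45% of the list. The members were chosen by that rule alone, an interval of the FOXO1 peak list that shares not 1 bp with a row of any GR list, so the absence of GR peaks is not a result. Of these GR-free regions, 508 lay on chromosomes 1 to 19, X and Y, where they made up 6.31% of 8053 FOXO1 regions, 12 lay on unplaced or alternate contigs and 0 on the mitochondrial sequence. The values below are for the 508 unless the contigs are named, and the 7545 FOXO1 regions with a GR peak on the same chromosomes are called the other FOXO1 regions.

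The chromatin came from whole livers of adult male C57BL/6J mice on regular chow, collected at ZT12 per the methods of the study. GR was precipitated in 2 libraries each of control mice (ctrl.), of mice on caloric restriction (cal. res.) and of control-fed mice injected daily with corticosterone (CORT). Per those methods, ctrl. mice ate freely until the final week, when food was limited to the night. CORT mice were fed only at night during the week of injections. FOXO1 was precipitated in 2 cal. res. libraries, which were merged before peaks were called, so a FOXO1 region has 1 value and no replicate error, and no FOXO1 list of ctrl. or CORT mice was analysed here. All groups are mice of 1 strain, and livers hold hepatocytes beside endothelial, immune and other cells that these lists cannot separate. The 6 GR lists held 13667 to 48060 rows with q-values up to 0.0998, and each FOXO1 row had a -log10 q of at least 5.01. "GR-free" therefore means that no peak was listed even at a lenient threshold, not that GR was absent. The lists do not give the read depth of each library.

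FOXO1 is a forkhead transcription factor that insulin signalling keeps out of the nucleus. In the fasted liver it enters the nucleus and acts on genes of glucose production, insulin signalling and stress resistance through the forkhead core TGTTTAC and its variants. GR is a nuclear receptor that binds corticosterone in mice and commonly shares open enhancers with liver factors such as C/EBP, HNF4 and HNF6. CTCF is a zinc finger protein that marks chromatin loop anchors and insulators in most cell types, and its consensus is long enough to be recognised in single sequences.

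Sequences of 2 kinds stood at the summits of the GR-free regions, and both are printed here because the motif results turn on them. The first set holds the distal GR-free regions of highest FOXO1 fold enrichment with a forkhead core within 100 bp of the summit. Each line gives the nearest protein-coding gene and 60 bp of the reference (GRCm38, the mm10 build, RefSeq copy) read 5′ to 3′ on the strand named, with the forkhead core in capitals.
Khdrbs3 (chr15:69365646-69365705, minus strand): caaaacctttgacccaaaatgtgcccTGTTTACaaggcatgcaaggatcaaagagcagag
Mreg (chr1:72012884-72012943, plus strand): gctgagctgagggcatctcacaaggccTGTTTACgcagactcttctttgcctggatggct
Cbx7 (chr15:79927824-79927883, minus strand): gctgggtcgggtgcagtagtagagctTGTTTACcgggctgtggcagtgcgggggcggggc
Uspl1 (chr5:149135899-149135958, minus strand): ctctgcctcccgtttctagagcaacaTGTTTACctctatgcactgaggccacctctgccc
Lrtm1 (chr14:29107573-29107632, minus strand): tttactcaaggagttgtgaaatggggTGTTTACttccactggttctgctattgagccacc
Sec61b (chr4:47650176-47650235, minus strand): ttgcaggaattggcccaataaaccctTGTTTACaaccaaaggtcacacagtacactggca

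The 3 GR-free regions of highest fold with a forkhead core within 1 kb of a transcription start are shown in the same way. Zfp972 encodes a zinc finger protein, Frg1 a nuclear protein tied to RNA processing, and Gm31408 is a predicted gene without an assigned role.
Zfp972 (chr2:177925911-177925970, plus strand): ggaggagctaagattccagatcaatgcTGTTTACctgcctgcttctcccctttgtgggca
Frg1 (chr8:41417079-41417138, plus strand): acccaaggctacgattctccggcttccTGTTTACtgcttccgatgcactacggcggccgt
Gm31408 (chr9:31559594-31559653, plus strand): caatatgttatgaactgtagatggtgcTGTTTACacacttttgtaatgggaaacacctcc

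The second set holds the GR-free regions of highest fold enrichment with a CTCF consensus, CCANNAGNNGGC, in capitals. It was chosen after the motif shares had been seen.
Rapgef1 (chr2:29619662-29619721, plus strand): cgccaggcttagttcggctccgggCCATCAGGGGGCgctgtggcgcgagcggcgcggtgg
Gapt (chr13:110368753-110368812, minus strand): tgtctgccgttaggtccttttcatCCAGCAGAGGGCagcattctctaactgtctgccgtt
2300002M23Rik (chr17:35578347-35578406, plus strand): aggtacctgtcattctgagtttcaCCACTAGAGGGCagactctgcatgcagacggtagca
Caln1 (chr5:130853554-130853613, minus strand): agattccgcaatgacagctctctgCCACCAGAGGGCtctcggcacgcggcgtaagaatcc
Lbr (chr1:181888932-181888991, plus strand): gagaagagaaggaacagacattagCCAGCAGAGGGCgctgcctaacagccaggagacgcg
Tmbim6 (chr15:99416727-99416786, minus strand): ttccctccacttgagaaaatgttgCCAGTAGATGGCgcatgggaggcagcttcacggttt
Fam129b (chr2:32912572-32912631, plus strand): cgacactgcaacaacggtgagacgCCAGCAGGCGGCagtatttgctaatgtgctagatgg
Klhl31 (chr9:77596504-77596563, plus strand): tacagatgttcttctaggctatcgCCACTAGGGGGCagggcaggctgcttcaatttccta

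The CTCF consensus was the motif in which the GR-free regions departed most from the other FOXO1 regions. In windows of 200 bp around the summit, 149 of 508 GR-free regions held it, 29.3% (exact 95% interval 25.4 to 33.5%). Of the other FOXO1 regions, 206 of 7545 held it, 2.73% (2.37 to 3.12%). Windows of the same length 2 kb to either side held it in 1.69% around all FOXO1 regions and in 2.26% around the GR-free ones. Read the other way, 42.0% of the 355 FOXO1 regions with a CTCF consensus were GR-free, against 6.31% of all. In the GR lists themselves, 1.33 to 1.97% of regions per library held the consensus at their summits. With 1 mismatch allowed, the shares were 56.1% of GR-free and 21.0% of other FOXO1 regions. All intervals here cover counting error over regions only, and no CTCF binding was measured in these data.

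Under the rule as given, the share with a forkhead core was close in GR-free and other FOXO1 regions. It stood in 97 GR-free windows, 19.1% (15.8 to 22.8%), and in 18.9% (18.02 to 19.8%) of the other FOXO1 windows, against 2.85% of the windows 2 kb away. The closeness rested on the rule: without ctrl. replicate 1 the shares were 23.5% and 18.5%, with GR rows at a q of at most 1e-05 23.2% and 18.4%, with 12458 GR regions per library 25.2% and 17.7%, and with the cal. res. GR libraries alone 24.6% and 18.001%. The longer DAF-16 family element, TTGTTTAC, followed the same order with 6.89% of GR-free windows, 6.04% of the others and 0.789% at 2 kb. The FOXA-type variant TGTTTGC did not, with 3.74% (2.267 to 5.78%) of GR-free windows and 9.57% (8.91 to 10.3%) of the others. FOXA factors are forkhead proteins that open liver enhancers.

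Most motifs of liver factors were scarcer at the GR-free summits. Of 21 motifs searched on both strands, CTCF alone was more frequent with intervals that lay apart, 11 were less frequent with intervals apart, and 9 had overlapping intervals. The C/EBP element, TTGCNNAA, was in 9.65% (7.22 to 12.6%) of GR-free windows and 21.0% (20.1 to 22.0%) of the others. The nuclear receptor hexamer AGGTCA was in 14.8% (11.8 to 18.2%) and 27.1% (26.1 to 28.1%). The HNF6 element ATTGATT was in 1.77% (0.813 to 3.34%) and 6.91% (6.34 to 7.50%). Windows 2 kb from the GR-free regions held C/EBP in 7.19% and the hexamer in 13.5%, and windows 2 kb from all FOXO1 regions in 8.04% and 12.7%. The insulin response element TGTTTTG, NF-Y, STAT, SP/KLF, E-box and NRF1 motifs were less frequent as well. AP-1, TEAD, ETS, YY1, CRE, HNF4, the palindromic GR element and the DAF-16 family element had overlapping intervals, as did the forkhead core.

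The GR hexamer was less frequent in GR-free than in other FOXO1 regions, a direction that the rule against GR peaks itself favours. The GR hexamer AGAACA stood in 13.4% (10.5 to 16.7%) of GR-free windows, in 19.8% (18.9 to 20.7%) of the other FOXO1 windows, in 16.6% of windows 2 kb from all FOXO1 regions and in 18.5% of those 2 kb from the GR-free ones. The palindromic GR element was in 0 of 508 GR-free windows, which allows a share of up to 0.724% (exact 95% interval), and in 11 of the others, so this difference was not detectable at these numbers.

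**Figure D1:**
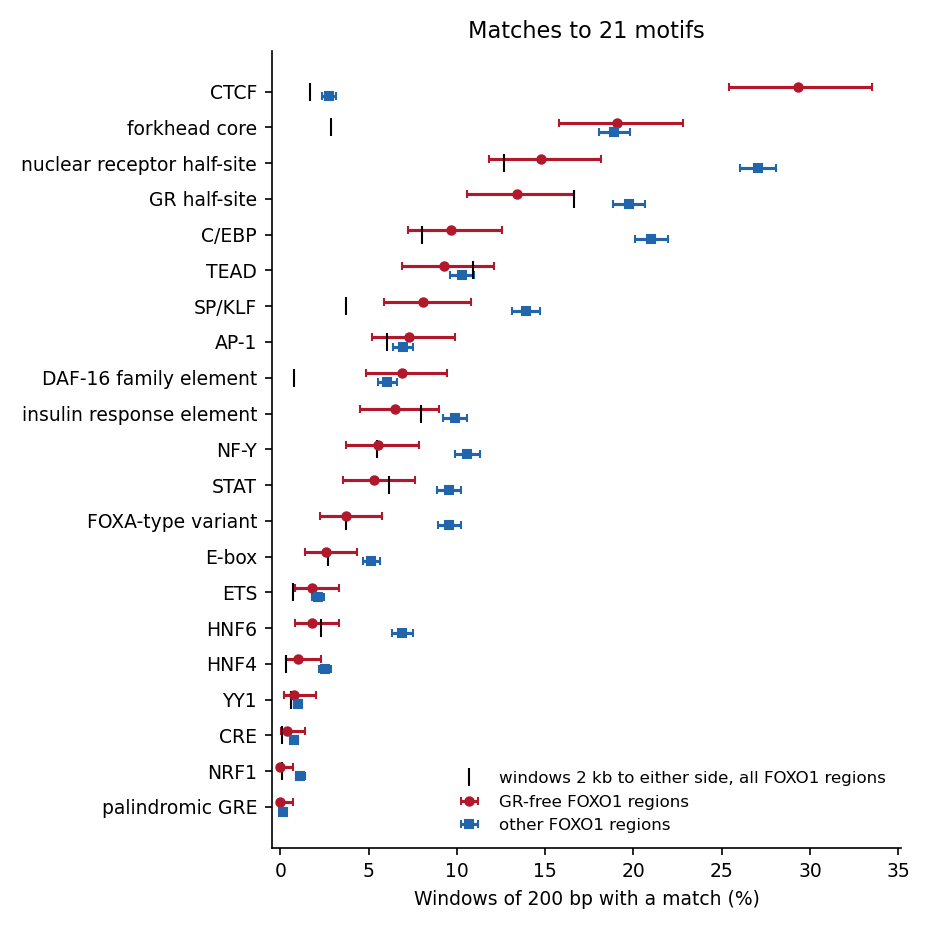
Share of 200 bp windows (x axis, percent) with a match to each of 21 motifs (y axis) in GR-free FOXO1 regions (red circles) and other FOXO1 regions (blue squares), with exact 95% intervals as bars; black ticks give windows 2 kb to either side of all FOXO1 regions. CTCF stands at 29.3% against 2.73%, the forkhead core at 19.1% against 18.9%, and C/EBP at 9.65% against 21.0%.

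Both sequences sat at the summit. Among GR-free regions with a forkhead core within 100 bp, the closest match lay a median of 25.5 bp from the summit, and in the other FOXO1 regions 28.5 bp. For CTCF the medians were 29.0 bp in GR-free regions and 42.0 bp in the others. Of the GR-free regions with a CTCF match, 45.2% had it within 25 bp of the summit, against 29.5% of the others with a match. CTCF matches in the other FOXO1 regions were also more frequent near the summit than 300 bp from it, at a much lower level.

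**Figure D2:**
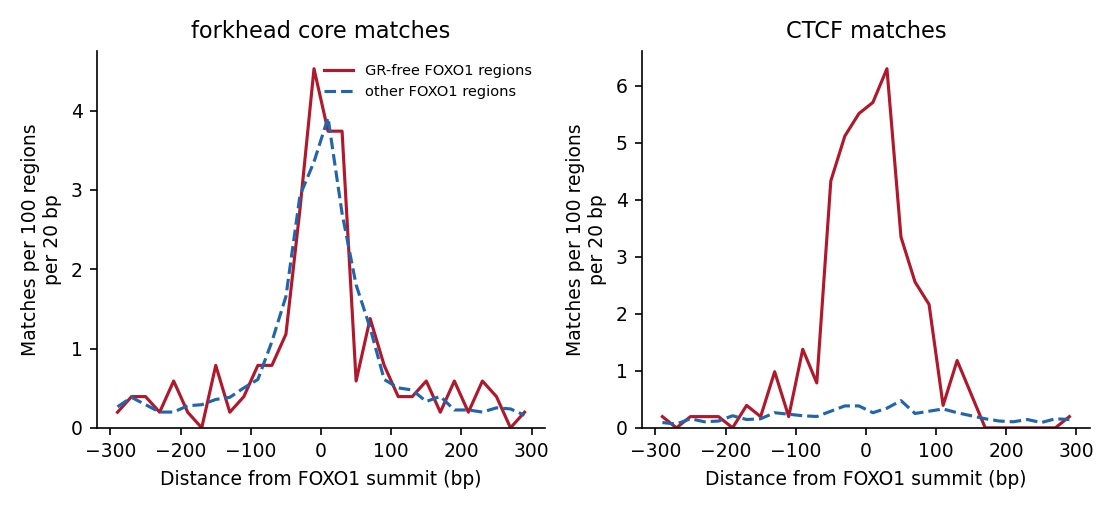
Matches per 100 regions in bins of 20 bp (y axis) by distance from the FOXO1 summit in bp (x axis), for the forkhead core (left) and the CTCF consensus (right), in GR-free (red, solid) and other FOXO1 regions (blue, dashed). The forkhead profiles peak together at the summit, and the CTCF peak is far higher in the GR-free regions than in the others.

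The motifs divided the GR-free regions with little overlap. A CTCF consensus without a forkhead core was found in 142 regions, a forkhead core without CTCF in 90, both in 7 and neither in 269. Set apart from the CTCF holders, 25.1% (20.7 to 29.9%) of the remaining 359 GR-free regions held a forkhead core, against 19.2% (18.3 to 20.1%) of the other FOXO1 regions without CTCF. Of the CTCF regions 55.0% (46.7 to 63.2%) were intergenic and of the forkhead regions 37.1% (27.5 to 47.5%), with intervals that overlap. GC content of the window averaged 52.0% ± 7.35 (SD, n = 149) in the CTCF regions and 46.8% ± 6.88 (SD, n = 97) in the forkhead regions, and the motifs themselves differ in GC. Over all GR-free regions it averaged 49.8% ± 8.85 (SD, n = 508), and over the others 49.7% ± 9.42 (SD, n = 7545).

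Sorting the FOXO1 regions by the number of GR libraries with a peak on them placed the GR-free regions at 1 end of a CTCF gradient, but not of a forkhead gradient. The CTCF share was 29.3% with 0 GR libraries, 11.6% (7.996 to 16.0%) with 1, 9.82% with 2, 4.76% with 3, 2.44% with 4, 2.02% with 5 and 1.84% (1.46 to 2.29%) with 6. The forkhead share was 19.1% with 0, 34.3% (28.7 to 40.3%) with 1, 35.3% (29.6 to 41.2%) with 2, and lower at each further step to 14.9% (13.8 to 16.0%) with 6. The 543 regions with a peak in 1 or 2 GR libraries resembled the GR-free ones in width (median 338 bp against 338.5 bp), yet 34.8% (30.8 to 39.0%) of them held a forkhead core. Leaving CTCF holders aside on both sides, the shares were 36.9% (32.6 to 41.4%) in these regions and 25.1% in the GR-free ones. C/EBP shares were 9.65% (7.22 to 12.6%) with 0 libraries, 15.3% (11.2 to 20.2%) with 1 and 12.4% (8.72 to 16.8%) with 2. They were 15.5% with 3, 17.5% with 4, 23.5% with 5 and 22.1% with 6. The intervals with 1 and 2 libraries overlapped that of the GR-free regions.

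**Figure D3:**
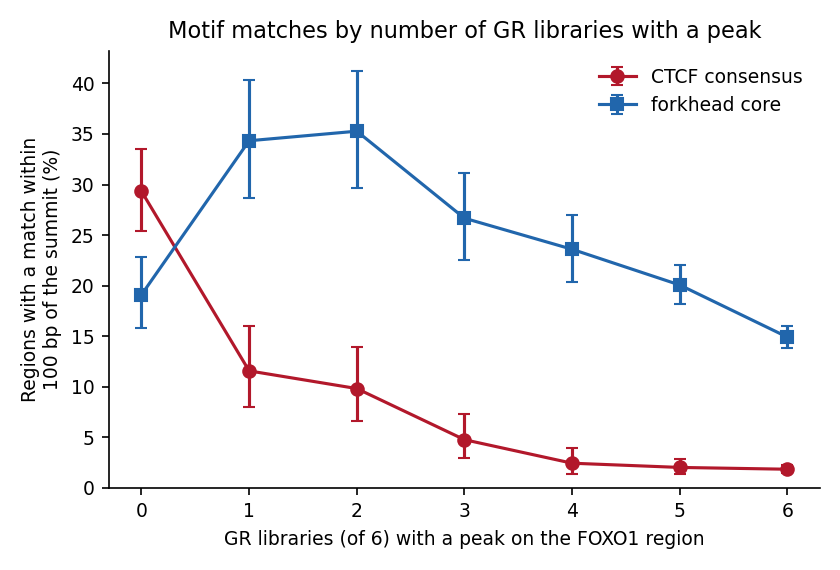
Share of FOXO1 regions with a CTCF consensus (red circles) or a forkhead core (blue squares) within 100 bp of the summit (y axis, percent) by the number of GR libraries, of 6, with a peak on the region (x axis); bars are exact 95% intervals and 0 marks the GR-free regions. CTCF falls from 29.3 to 1.84%, and the forkhead core is highest at 1 and 2 libraries.

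GR-free regions had lower FOXO1 fold enrichment than the other FOXO1 regions as a whole, though not than those with a peak in few GR libraries. Fold enrichment is the pileup at the summit over the local background, as the peak caller gives it. It ran from 1.83 to 21.4 with a median of 5.30 (quartiles 4.59 and 6.53), while the other FOXO1 regions had a median of 5.82 and a highest value of 47.4. On the scale of percentiles within the FOXO1 list the median was 38.9 (95% interval from order statistics 35.3 to 41.0; quartiles 18.1 and 62.6), against 50.8 for the others. By number of GR libraries with a peak, the median percentile was 33.5 with 1, 40.3 with 2, 36.5 with 3, 33.5 with 4, 45.1 with 5 and 60.0 with 6, so regions with 5 or 6 GR libraries set the median of the others. The GR-free share went from 8.69% (6.85 to 10.8%) in the 10% of the list with the lowest fold to 2.49% (1.53 to 3.82%) in the 10% with the highest. Narrow regions have less length to overlap anything, and the GR-free ones were narrower, with a median width of 338.5 bp against 421 bp; what part width had in the rule was not tested.

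**Figure D4:**
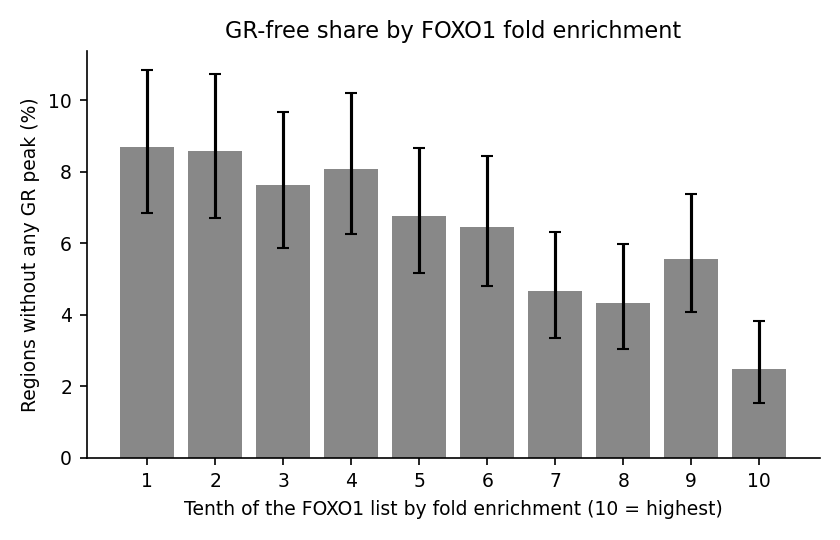
Share of FOXO1 regions without any GR peak (y axis, percent) in successive 10% steps of the FOXO1 list by fold enrichment (x axis, 10 is the highest); error bars are exact 95% intervals. The bars go from 8.69% in the lowest step to 2.49% in the highest.

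Fold enrichment and motif content went together differently in GR-free and other regions. Among the 85 GR-free regions in the upper 25% of the FOXO1 list, 37.6% (27.4 to 48.8%) held CTCF and 11.8% (5.79 to 20.6%) a forkhead core. Among the 165 in the lower 25%, 23.6% (17.4 to 30.9%) held CTCF and 18.2% (12.6 to 24.9%) a forkhead core, and for both motifs these intervals overlapped those of the upper 25%. In the other FOXO1 regions the forkhead core stood in 29.3% (27.3 to 31.4%) of the upper 25% and 11.6% (10.2 to 13.2%) of the lower. Strong FOXO1 regions as a whole thus held a forkhead core less often where no GR peak was listed than where 1 was. Of the 85, 32 held CTCF, and all 10 with a forkhead core were among the 53 without it. Forkhead shares of strong regions with CTCF holders left aside were not compared.

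The GR-free regions of highest fold enrichment illustrate this mixture. The strongest lay 123 bp upstream of Rapgef1, which encodes a guanine nucleotide exchange factor of the Rap pathway (chr2:29619404-29619831, fold 21.4), held a CTCF consensus and was 433 bp from the nearest GR peak, in CORT replicate 2. The next (chr15:69365459-69365950, fold 19.1) lay 437 kb from Khdrbs3, an RNA-binding protein gene, held a forkhead core and was 321 kb from the nearest GR peak. It was followed by a CTCF region 11.6 kb upstream of Gapt (chr13:110368515-110369080, fold 17.3), a gene of haematopoietic cells, and a CTCF region 11.0 kb from 2300002M23Rik (chr17:35578213-35578615, fold 15.3). A region on the start of Abca14, an ABC transporter gene (chr7:120203738-120204198, fold 15.3), held neither sequence. Neither was found in the regions assigned to Kif17, a kinesin gene (fold 15.2, 20.5 kb from its start), and Iqsec1 (fold 15.1, 21.0 kb). The same held for those assigned to Cog6, a Golgi complex gene (fold 14.3, 173 kb), Gm16253 (fold 14.2, 3.39 kb) and Glrx3, a glutaredoxin gene (fold 13.4, 40.8 kb). The region assigned to Mreg, with a forkhead core, and that assigned to Caln1, with CTCF, both had a fold of 13.7. Of these 12, 4 held CTCF and 2 a forkhead core.

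The other printed sequences came from regions further down the list. With a forkhead core, Cbx7, a Polycomb gene (fold 9.61, gap 4.49 kb), Uspl1 (fold 9.29, gap 23.1 kb), Lrtm1 (fold 9.18, gap 89.3 kb) and Sec61b, a gene of the protein translocation channel (fold 9.16, gap 175 kb), were the nearest protein-coding genes. With CTCF they were Lbr, the lamin B receptor gene (fold 12.5, gap 0.199 kb), Tmbim6 (fold 12.1, gap 11.1 kb), Fam129b (fold 11.8, gap 14.9 kb) and Klhl31 (fold 11.6, gap 59.0 kb). High fold was thus found both beside a GR peak and far from any.

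GR-free regions were distal more often than the other FOXO1 regions as a whole, but were close to those with a peak in 1 GR library. Within 1 kb of an annotated transcription start (GENCODE M21 basic set) lay 54 of them, 10.6% (8.09 to 13.6%), against 23.9% (23.0 to 24.9%) of the others. For starts of protein-coding genes the shares were 7.09% (5.01 to 9.68%) and 19.6% (18.7 to 20.5%). Their centres were intergenic in 235 cases, intronic in 237 and exonic in 36. By number of GR libraries with a peak, the share at any start was 13.4% with 1, 21.5% with 2 and 29.8% with 3. It was 28.6% with 4, 19.7% with 5 and 25.1% with 6. The 13.4% lies within the interval of the GR-free regions. The contrast with the other FOXO1 regions as a whole shrank when fewer GR peaks defined the set. It came to 17.3% against 24.2% with 12458 GR regions per library, and to 21.2% against 23.4% with the cal. res. GR libraries alone. The SP/KLF and NRF1 motifs named above are motifs of promoters, and shares within promoters alone were not computed.

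At protein-coding starts the strongest GR-free regions were those of Rapgef1 and Abca14, followed by Map3k15, a kinase gene (chrX:159987946-159988319, fold 11.2), and Pfdn4, a prefoldin subunit gene (chr2:170510995-170511591, fold 9.90). Zfp972 (fold 8.90) and Man2b2, a lysosomal mannosidase gene (fold 7.85), came next. Frg1 (chr8:41416910-41417345, fold 6.53) was the one among these with both a forkhead core and a CTCF consensus. Lrfn2, a synaptic adhesion gene (fold 6.10), was the eighth. The GR gaps of these 8 ran from 0.433 kb at Rapgef1 to 333 kb at Lrfn2.

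The lists of insulin and FOXO1 target genes and of classic GR target genes had 0 GR-free regions. The rule leaves out regions with a GR peak, so a lack of members at GR target genes is partly fixed by it. Several regions can share 1 gene, and the intervals treat regions as independent. Regions were assigned to the nearest protein-coding start. The list of 33 insulin and FOXO1 target genes of liver had 123 FOXO1 regions, at 26 of the genes. Of these regions 0 were GR-free, which allows a share of up to 2.95% (exact 95% interval), against 6.31% over all regions. Classic GR target genes had 0 of 78, up to 4.62%, and circadian clock genes had 0 of 51, up to 6.98%. Autophagy genes had 0 of 19 and fatty acid oxidation and ketogenesis genes 0 of 19, each of which allows up to 17.6%. Angptl4, Ddit4 and Tat stood in both of the first lists, and Per1 in those of GR and the clock. Hepatocyte transcription factor genes had 1 of 92, 1.09% (0.0275 to 5.91%), a region 198 kb from Foxa2, one of 11 FOXO1 regions assigned to that gene.

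The remaining lists held few GR-free regions, with intervals that included the 6.31% of all regions. Of 46 regions at FOXO stress, cell cycle and apoptosis genes, 2 were GR-free, 4.35% (0.530 to 14.8%). One lay 37.5 kb from Fasl, which encodes the Fas ligand (fold 6.61, forkhead core, 125 kb from a GR peak), and the other 31.8 kb from Tnfsf10, which encodes the death ligand TRAIL (fold 4.58, 1.23 kb from a GR peak). Each was the single FOXO1 region assigned to its gene. Endothelial and lymphocyte genes had 1 of 13, 7.69% (0.195 to 36.0%). It lay in the neighbourhood of Stab2, a scavenger receptor gene of sinusoidal endothelium (fold 4.83). Kupffer cell, stellate cell and cholangiocyte genes had 1 of 8, 12.5% (0.316 to 52.7%). It lay at Col1a1, a collagen gene of stellate cells and fibroblasts (fold 5.39, CTCF consensus). The limits of the insulin and FOXO1 targets, the classic GR targets and the hepatocyte transcription factor genes lay under the 6.31% of all regions, and those of the other lists reached above it. Several regions share 1 gene, and the rule partly fixes a lack of members at GR targets. No depletion is therefore read from these limits.

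The distance to GR peaks varied widely. The gap from a GR-free region to the nearest GR peak of any library had a median of 11.2 kb (quartiles 3.27 and 35.9 kb). Within 500 bp of a GR peak lay 24 regions, within 1 kb 50, within 5 kb 166 (32.7%) and within 50 kb 410 (80.7%). The median gap was 6.74 kb (quartiles 2.33 and 28.8 kb) in regions with a forkhead core, 11.4 kb (4.19 and 26.7 kb) in those with CTCF and 11.8 kb (3.36 and 43.6 kb) in those with neither, and these spreads overlapped widely. Just inside the rule were regions assigned to Tmem81, Cntnap5b and Tmc6, with gaps of 59, 75 and 76 bp to peaks of CORT replicate 2 and folds of 6.10, 4.64 and 4.45. Just outside were regions assigned to Prkch, Cluh and Bcr, which overlapped a peak of 1 library by 9, 10 and 20 bp and had folds of 8.72, 5.07 and 5.09.

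How much of the FOXO1 list a GR library missed differed within groups as well as between them. The lists of replicates 1 and 2 held 41400 and 13667 rows for ctrl., 24915 and 20444 for cal. res., and 33451 and 48060 for CORT. Longer lists mostly missed fewer FOXO1 regions, and what part list length had was not tested. FOXO1 regions without a peak numbered 910 in ctrl. replicate 1 and 3397 in ctrl. replicate 2. They numbered 1395 and 1805 in cal. res. replicates 1 and 2, and 1370 and 946 in CORT replicates 1 and 2. The ctrl. libraries thus spanned the values of all the others. For GR peaks beside GR-free regions they nearly did so, with only CORT replicate 2 above them. A GR peak within 5 kb was found for 24.8% of GR-free regions in ctrl. replicate 1 and 8.27% in replicate 2. The cal. res. libraries gave 17.1% and 12.6%, and the CORT libraries 19.5% and 26.2%. Ctrl. averaged 16.5% ± 11.7 (SD, n = 2), cal. res. 14.9% ± 3.20 (SD, n = 2) and CORT 22.8% ± 4.73 (SD, n = 2). The difference of cal. res. from ctrl., -1.67 percentage points, had a two-sided exact permutation p of 1, and that of CORT from ctrl., 6.30 points, a p of 0.667, where 2 against 2 libraries cannot go below 0.333. Over the 3 groups the exact permutation p was 0.533, of which the smallest possible is 0.0667. The same 6 GR lists chose the GR-free regions, so these comparisons, and those with reduced lists below, are not independent of the rule. No conclusion on the groups is drawn from them. The labels call the libraries replicates and do not say which animals they came from.

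With each GR list reduced to its 12458 regions of smallest p-value, the shares within 5 kb came to 8.86% and 8.27% for the ctrl. pair, 9.25% and 8.27% for cal. res., and 7.87% and 8.46% for CORT, so the groups overlapped. Within 50 kb the reduced lists gave 50.8% for both ctrl. libraries, 44.7% and 43.9% for cal. res., and 46.9% and 46.3% for CORT. These groups did not overlap. The exact permutation p over the 3 groups was 0.0667, which is the smallest possible, and 0.4 after Benjamini-Hochberg adjustment over the 6 measures computed. The same GR lists chose the regions, so no conclusion on the groups is drawn from this. Names of the libraries in the labels follow 1 style for ctrl. replicate 2 and cal. res. and another for ctrl. replicate 1 and CORT. Within the first, in the lists as deposited, cal. res. exceeded the single ctrl. library by 6.59 points at 5 kb. Within the second, CORT differed from its single ctrl. library by -1.97 points. Lists differed in length within each style, and what part that had was not tested. What the styles mark was not stated.

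**Figure D5:**
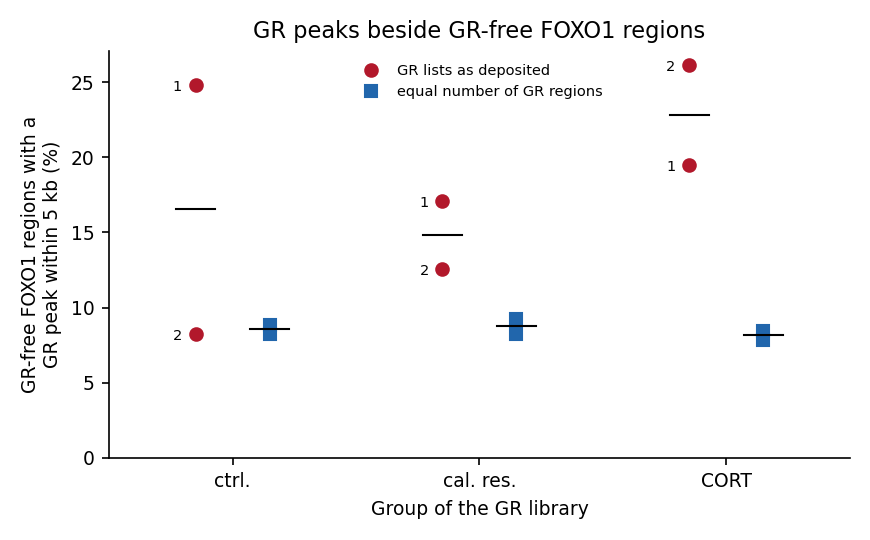
Share of GR-free FOXO1 regions with a GR peak within 5 kb (y axis, percent) in each GR library by group (x axis); red circles use the lists as deposited, with replicate numbers beside them, blue squares the 12458 regions of smallest p-value per library, and black bars are means of 2. The ctrl. circles, at 24.8 and 8.27%, span nearly the whole range, and the squares lie between 7.87 and 9.25%.

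A small class of GR-free regions had a low fold enrichment beside a very small q-value. Fold under 4 with a -log10 q over 10 was found in 19 GR-free regions, 3.74%, and in 2 of the other FOXO1 regions, 0.0265%; these limits were set after the values had been seen. None of the 19 held a CTCF consensus or a forkhead core. They included 2 adjoining regions of 3772 and 1479 bp at chr17:39843046-39848794, where the annotation lists AY036118 and Gm26917, with folds of 3.23 and 3.02. Others lay in a stretch of 5 GR-free regions at the start of chromosome 9 (chr9:3000012-3032616), whose sequence was 92.8 to 96.5% soft-masked repeat. A stretch of 4 GR-free regions at chr2:98662173-98667439 had folds of 2.87 to 5.85 and a -log10 q of up to 164.

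Peak numbers in the GR lists bear on that class directly. Rows are numbered along the genome, and each GR list skips 5 to 9 numbers after its first row and lacks the first 4 to 14, so rows with those numbers were not analysed here. The places between the rows on either side of a skipped number held 19 GR-free regions, 8 of them in the low-fold class, and 7 lay in such places in all 6 lists, among them the stretches on chromosomes 17 and 2 and a region assigned to Mroh2a (chr1:88224240-88224927, fold 6.72). Whether a GR peak stood on these regions cannot be told from the lists. The study's methods describe a removal of blacklisted regions, and whether it was applied to the FOXO1 list was not tested. Without the contigs, these places and the 56 GR-free regions of over 50% repeat, 441 regions were left, of which 29.7% held CTCF, 20.4% a forkhead core and 8.84% lay at a transcription start.

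Repeats were more common among GR-free regions in general, with 11.0% over 50% soft-masked, against 2.54% of the other FOXO1 regions. The CTCF share among the 56 repeat-rich regions was 28.6% (17.3 to 42.2%), and the forkhead share was 12.5% (5.18 to 24.1%).

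The 12 contig regions were all the FOXO1 regions on contigs. The GR lists hold 0 rows on contigs, so a GR-free call and a lack of contig rows cannot be told apart there. Contig JH584304.1 held 7 of them, and 9 of the 12 had a fold under 4, in a range from 1.87 to 12.5. All 3 FOXO1 regions on the mitochondrial sequence overlapped GR peaks.

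With Y, which held 1 FOXO1 region, set aside, the GR-free share was highest on X. There 11 of 50 FOXO1 regions were GR-free, 22.0% (11.5 to 36.0%), against 6.31% over all placed chromosomes; 3 of them held CTCF, 1 a forkhead core and 4 lay at a transcription start. Among them were regions at Gripap1, Bclaf3 and Ube2a, named after their values had been seen, with folds of 5.09, 4.83 and 4.58. The share was 9.98% (7.65 to 12.7%) on chromosome 2 and 3.81% (2.37 to 5.77%) on chromosome 4. The FOXO1 region on Y was GR-free and 77.5% soft-masked.

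The 3 GR-free regions farthest from any listed GR peak were all low in fold. They were a region 48.6 kb from Chl1 (fold 3.20, gap 1119 kb) and the 2 regions on chromosome 17 named above, with gaps of 960 and 958 kb. Those 2 lay where all 6 GR lists skip a number. Whether a GR peak stood there cannot be told, so their gaps and rank hold for the listed rows only. Elsewhere GR-free regions were mostly solitary, since 20 stretches held 2 or more within 50 kb of each other, with 47 regions in all.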

How the data were processed

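GR ChIP-seq peaks of 6 mouse liver libraries and 1 FOXO1 peak list were analysed. Per the labels the authors used BWA, Picard, MACS2 and bedtools on mm10, called GR peaks in each library and FOXO1 peaks in the merged libraries. As deposited, fold enrichment is the caller's ratio between signal at the summit and local background, and the deposited -log10 values are the caller's p-values and q-values; another deposited column gives the summit offset.

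FOXO1 rows (8394) with equal start and end were reduced to the summit of highest fold, and overlap meant at least 1 bp. Motifs were exact consensus matches on either strand in 200 bp at the summit, compared with windows 2 kb away. Sequence came from RefSeq GRCm38.p6, which has the mm10 chromosomes, and genes from GENCODE M21. Promoters lay within 1 kb of a start. Shares carry exact (Clopper-Pearson) 95% intervals over regions, which are not replicates, and shares of libraries were compared with two-sided exact permutation tests. Python 3.11.15, pandas 2.3.3 and SciPy 1.17.1 were used, and the code was tested on simulated data.

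The members, gene lists and motifs were chosen with earlier results of these data known. Named regions were the 12 of highest fold, the 8 of highest fold at a protein-coding start, up to 3 per gene list, the 3 closest to and 3 farthest from a GR peak, and the 3 FOXO1 regions of smallest overlap. The CTCF share, the motif classes and the low-fold class were added after the data had been seen. Alternatives were wider, stricter, fewer or left-out GR peaks, other motif windows and members left out.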

Additional observations from a re-analysis of the deposited data

How the results depend on the processing

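With GR rows at a q of at most 1e-05, 878 FOXO1 regions were GR-free, with 23.2% forkhead core, 21.8% CTCF and 14.7% at a start. With 12458 GR regions per library these values were 1309, 25.2%, 16.7% and 17.3%, and against the cal. res. libraries alone 1133, 24.6%, 19.2% and 21.2%. The stronger 50% of FOXO1 regions held 190, with 14.9% forkhead core, 35.1% CTCF and a median percentile within that part of 43.4. Ranking by -log10 q gave a median percentile of 41.4. A 100 bp window gave 15.2% forkhead core and 20.7% CTCF, the DAF-16 family element 6.89%, and 1 CTCF mismatch 56.1%. The share at a start was 23.0% within 3 kb and 7.09% for protein-coding genes. Leaving out 1 GR library gave 523 to 623 regions, 18.98 to 23.5% forkhead core (the highest without ctrl. replicate 1), 25.9 to 29.2% CTCF, 10.4 to 11.4% at a start and a median percentile of 37.5 to 39.1. Across the choices of GR rows, overlap and FOXO1 regions, the CTCF share was 8.09 to 14.5 times that of the remaining FOXO1 regions. That range holds for the exact consensus in 200 bp windows. With 1 mismatch the shares were 56.1% and 21.0%, and the share of the others in 100 bp windows is not given here.

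The difference of cal. res. from ctrl. at 5 kb reversed to 0.197 points with equal GR lists, and ran from -9.94 without ctrl. replicate 2 to 6.59 without ctrl. replicate 1, with 0.591 without cal. res. replicate 2. In a replicate block, with groups exchanged within a replicate number, it stayed at -1.67 points with an exact permutation p of 1; 2 pairs cannot show whether the numbers pair the samples. Widened GR peaks, the 50% overlap rule, a q of at most 0.01, and leaving out repeat-rich or skipped-number regions kept each share and count within its interval or 1.5 times. CTCF values and the joint exclusion were added after the data had been seen. The lists do not give depth per library, which limits any statement on absent GR peaks.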

Other observations

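FOXO1 regions with a peak in a single GR library varied in motif content with the library. Ctrl. replicate 1 was the only library with a peak on 95 FOXO1 regions, and 47.4% (exact 95% interval 37.0 to 57.9%) of these held a forkhead core and 7.37% (3.01 to 14.6%) a CTCF consensus. CORT replicate 2 was the only one on 103, with 25.2% (17.2 to 34.8%) and 13.6% (7.63 to 21.8%). CORT replicate 1 was the only one on 28, with 28.6% (13.2 to 48.7%) for the forkhead core and 7 of 28 (10.7 to 44.9%) for CTCF, intervals that overlap those of the GR-free regions for both motifs. Alone on a region, cal. res. replicates 1 and 2 had 21 and 18, and ctrl. replicate 2 had 3. These values were computed after the data had been seen, and they rest on 1 library each.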
